A study of Homo sapiens with 30 samples.

Results

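Potassium channel genes encode the membrane proteins that let potassium leave or enter cells and so set the resting potential and shape the firing of neurons. Members were the 95 of 20033 RefSeq protein-coding genes on chromosomes 1 to 22, X and Y whose symbol is KCN followed by letters and a number. They were described across 4 CUT&RUN peak lists, 2 made with an antibody against RING1 and 2 with an antibody against RNF2. In CUT&RUN an antibody brings a nuclease to the protein of interest, and the DNA fragments cut free there are sequenced. All 4 lists came from wild-type neural progenitor cells, grown as a monolayer and derived from the human embryonic stem cell line H9, in medium with N2, B27 and FGF. The series holds 30 libraries of 5 genotypes (wild type, heterozygous and homozygous RING1 R95Q, homozygous RING1 knockout and homozygous RNF2 R98Q), and only the 4 wild-type RING1 and RNF2 libraries were analysed here, so no genotype was compared. The lists form 2 pairs of 1 RING1 and 1 RNF2 list, called set A (wt8728 in the deposited names) and set B (wt8759). The labels tie neither set to replicate 1 or 2 and do not say whether the replicates are separate cultures.

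RING1 and RNF2 are the alternative catalytic subunits of Polycomb repressive complex 1 (PRC1), which attaches a single ubiquitin to a lysine of histone H2A and keeps developmental genes silent. Some genes needed only by mature neurons, ion channel genes among them, have CpG-rich promoters, at which Polycomb complexes can bind in progenitors. The members' promoters were less often CpG-rich than those of all protein-coding genes, as given below. Channel subunits fall into a few structural classes. Voltage-gated pore subunits open on depolarisation, and modifier subunits form channels only together with them. Inward rectifiers and tandem-pore (K2P) channels set the resting potential, calcium- or sodium-activated channels follow ion entry, and auxiliary subunits do not form the pore but change how it opens.

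The number of peaks differed strongly between the lists: RING1 had 12891 peaks in set A but 659 in set B, and RNF2 had 16263 and 5901. Read depth is unknown, so a gene with no peak is a gene with no call, not a gene shown to lack the protein. Each list is 1 library, and no error across replicates or test over samples was computed. The peak lists hold no expression, so the cell type label could not be checked against transcripts. As presence of peaks only, 5 of 6 neural progenitor markers had RNF2 of set A and 3 had RNF2 of set B. The numbers were 1 and 1 of 4 pluripotency markers, and 2 and 1 of 4 neuronal markers. Of all protein-coding genes, 56.1% had RNF2 of set A and 21.7% RNF2 of set B within 2 kb of a gene end. With so few markers, these counts do not check the cell type label.

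The sequences below are the 250 bases before an annotated transcript start, from RefSeq on GRCh38.p14, written 5′ to 3′ on the gene's strand with every CG dinucleotide in capitals. KCNA3, KCNC4 and KCNK1 are shown because RNF2 covered their starts in both sets. KCNN2 is shown because its inner start lay at peaks of all 4 lists. KCNE2 and KCNJ13 had no peak in any list, and they are extremes, with the fewest CG dinucleotides of all members with a promoter window. The 250 bases held 33 CG dinucleotides at KCNA3, 36 at KCNC4, 30 at KCNK1 and 17 at KCNN2, and 1 each at KCNE2 and KCNJ13. The last pair is not typical of members without calls. The promoter windows used below add 50 bases after the start. Over them, the 28 members with no end peak in any list had a median of 6 CG dinucleotides, and KCNT1 among them had 34. Members with RNF2 of both sets on the window had from 21 (KCND2) to 49 (KCNG3).
KCNA3 (chr1:110674941-110675190, minus strand): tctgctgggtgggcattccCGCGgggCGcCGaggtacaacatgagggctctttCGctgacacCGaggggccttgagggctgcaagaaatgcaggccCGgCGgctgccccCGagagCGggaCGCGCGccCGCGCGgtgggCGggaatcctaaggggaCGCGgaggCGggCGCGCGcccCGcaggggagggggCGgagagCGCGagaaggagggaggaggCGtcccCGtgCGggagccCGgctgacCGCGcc
KCNC4 (chr1:110210064-110210313, plus strand): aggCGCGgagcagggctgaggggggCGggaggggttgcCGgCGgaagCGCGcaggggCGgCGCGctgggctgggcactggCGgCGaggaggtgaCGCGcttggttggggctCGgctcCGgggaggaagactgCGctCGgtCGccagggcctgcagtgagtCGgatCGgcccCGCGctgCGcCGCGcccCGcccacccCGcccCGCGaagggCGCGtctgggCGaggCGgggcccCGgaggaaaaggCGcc
KCNK1 (chr1:233613856-233614105, plus strand): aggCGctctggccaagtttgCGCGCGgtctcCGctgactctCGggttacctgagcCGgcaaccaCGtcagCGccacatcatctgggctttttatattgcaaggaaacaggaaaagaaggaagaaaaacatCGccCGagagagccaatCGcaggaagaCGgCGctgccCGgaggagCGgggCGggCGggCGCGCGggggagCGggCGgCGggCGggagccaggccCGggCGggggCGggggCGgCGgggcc
KCNN2 (chr5:114361820-114362069, plus strand): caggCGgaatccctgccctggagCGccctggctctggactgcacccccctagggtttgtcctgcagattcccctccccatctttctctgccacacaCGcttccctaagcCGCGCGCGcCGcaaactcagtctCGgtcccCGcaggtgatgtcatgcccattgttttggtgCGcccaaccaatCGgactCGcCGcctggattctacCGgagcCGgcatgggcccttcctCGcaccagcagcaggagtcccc
KCNE2 (chr21:34363756-34364005, plus strand): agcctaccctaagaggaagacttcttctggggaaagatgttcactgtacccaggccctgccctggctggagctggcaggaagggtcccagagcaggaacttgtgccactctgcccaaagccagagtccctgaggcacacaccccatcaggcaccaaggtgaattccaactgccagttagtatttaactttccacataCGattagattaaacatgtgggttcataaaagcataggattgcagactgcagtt
KCNJ13 (chr2:232776566-232776815, minus strand): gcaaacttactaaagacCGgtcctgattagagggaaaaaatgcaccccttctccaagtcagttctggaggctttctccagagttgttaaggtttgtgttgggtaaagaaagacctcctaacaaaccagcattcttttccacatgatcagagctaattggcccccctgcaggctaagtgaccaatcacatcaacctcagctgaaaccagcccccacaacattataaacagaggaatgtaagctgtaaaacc

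Potassium channel genes carried RNF2 and, in set A, RING1 about as often as protein-coding genes at large, and none carried RING1 in set B. A gene was counted where a peak came within 2 kb of either annotated gene end. RING1 was at 48 members in set A (50.5%), where 45.6% of all protein-coding genes had it. RING1 of set B was at 0 members, where 1.32% of all genes had it. RNF2 was at 57 members in set A (60%, against 56.1% of all genes) and at 28 in set B (29.5%, against 21.7%). RNF2 was in both sets at 27 members (28.4%, against 20.8%). RING1 was in both sets at 0 members (1.31% of all genes), and no member was in all 4 lists (1.28% of all genes). These shares lie close to those of all genes, with the largest gap for RNF2 in set B.

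Counted by gene, 23 members were in 3 lists, 25 in 2, 14 in 1 and 33 in none (34.7%, against 40.6% of all genes). The 23 were all of the same kind, RING1 and RNF2 in set A with RNF2 in set B. In set A, 14 members had RNF2 without RING1 (14.7%, against 13.1% of all genes) and 5 had RING1 without RNF2 (5.26%, against 2.61%), the 5 being KCNA5, KCNK10, KCNK15, KCNN3 and KCNQ3. RING1 and RNF2 of set A shared 43 members, which is 89.6% of the RING1 members and 75.4% of the RNF2 members, and their peaks overlapped at 42 of the 43, the exception being KCNS3. RNF2 of both sets shared 27 members, which is 96.4% of the set B members and 47.4% of the set A members, and the peaks overlapped at 26. Over all genes those shares were 94.3% and 76.7% for the proteins of set A, and 95.8% and 37% for the RNF2 sets. No peak lay at the ends of 2 members at once, so no call was counted for a pair of members.

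At the limit of the window, KCNJ14 was the member counted from farthest away in all 3 lists with calls, with its nearest peak 1855 bp (RING1, set A), 1649 bp (RNF2, set A) and 1935 bp (RNF2, set B) from the gene end. Just outside it lay KCNA7 for RING1 of set A (2051 bp), KCNIP2 for RNF2 of set A (2047 bp) and KCNH6 for RNF2 of set B (2032 bp). For RING1 of set B the member with a gene end nearest to a peak was KCNK18, at 31431 bp.

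**Figure D1:**
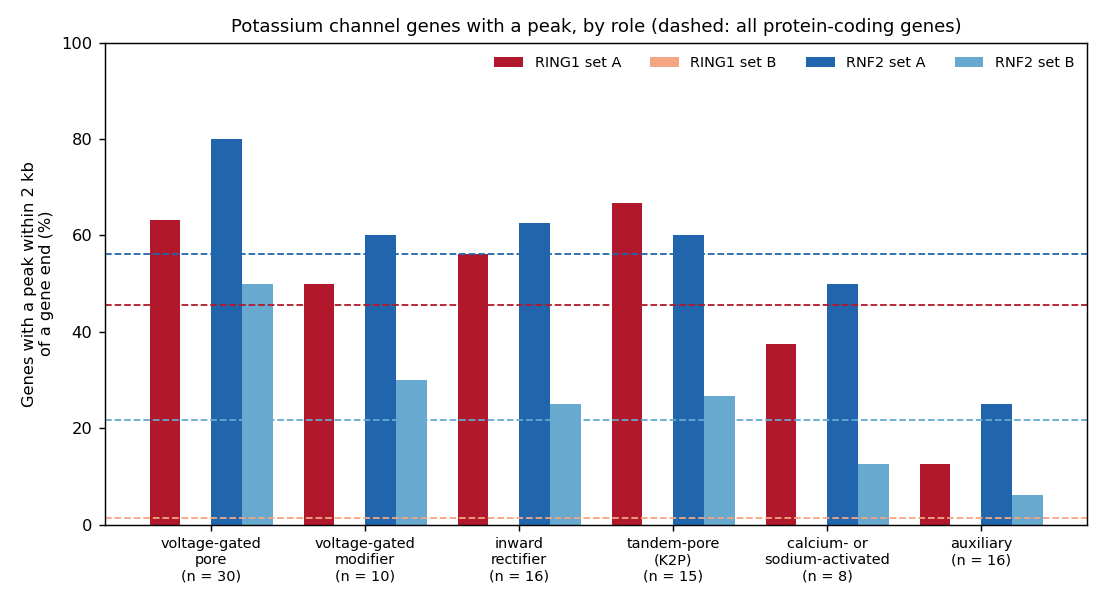
Percentage of potassium channel genes with a peak within 2 kb of a gene end (vertical axis), by structural class (horizontal axis, n genes each) and peak list (bars). Dashed lines give the same share over all 20033 protein-coding genes. Voltage-gated pore genes reach 80% for RNF2 of set A and auxiliary genes 25%, and the RING1 set B bars are all at 0.

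At gene ends, voltage-gated pore genes carried RNF2 peaks most often and auxiliary genes least often of the 6 classes, in both sets. Of 30 pore genes, 19 had RING1 in set A, 24 had RNF2 in set A and 15 had RNF2 in set B. Of 16 auxiliary genes these numbers were 2, 4 and 1, and 12 had no peak at their ends in any list. The 10 modifier genes had 5, 6 and 3, the 16 inward rectifier genes 9, 10 and 4, the 15 K2P genes 10, 9 and 4, and the 8 calcium- or sodium-activated genes 3, 4 and 1. Over all genes the shares were 45.6%, 56.1% and 21.7%, and 40.6% were in no list. RNF2 of set A was at 80% of pore and 25% of auxiliary genes. For modifier, inward rectifier and K2P genes it was at 60%, 62.5% and 60%, closer to all genes. In set B, auxiliary and calcium- or sodium-activated genes had 1 RNF2 call each, so their order there rests on class size. The classes were not tested against each other, since genes are not replicates of a condition. Peaks inside a gene are outside these counts. For RNF2 of set A, 10 members had such a peak and none at their ends. They were the auxiliary genes KCNAB1, KCNE1, KCNIP1, KCNIP2 and KCNIP3, and KCNA2, KCNK2, KCNK10, KCNQ1 and KCNQ3 of other classes. The contrast of classes thus describes gene ends only.

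Among the pore genes, the KCNH family stood at 8 of 8 for RNF2 in set A, 6 for RNF2 in set B and 5 for RING1 in set A. Over all protein-coding genes these shares were 56.1%, 21.7% and 45.6%. The RING1 call at KCNH6 came from a peak at its far end that also met DCAF7. The KCNH family includes KCNH2, the gene of the cardiac repolarising channel targeted by many drugs. KCNC genes, which encode the fast-closing channels of rapidly firing neurons, had RNF2 at 4 of 4 in set A against 1 in set B, and RING1 at 3. KCNA genes, the mammalian Shaker channels, had RING1 at 5, RNF2 of set A at 5 and RNF2 of set B at 4 of 8. KCNB genes, of slow somatic potassium current, had 2, 2 and 1 of 2, and KCND genes, of the fast transient dendritic current, had 1, 2 and 1 of 3. KCNQ genes, of the current that muscarinic receptors close, had 3, 3 and 2 of 5.

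The strongest fold at any member was at KCNA3, which encodes the main voltage-gated potassium channel of T lymphocytes and is minus-strand on chromosome 1 (110653560 to 110674940, hg38). The authors' fold of a peak is the caller's estimate of signal relative to background, and is compared here only within a list. At KCNA3 it was 7.28 for RING1 in set A, 9.68 for RNF2 in set A and 4.25 for RNF2 in set B. These values stand at the 96.5th, 98th and 73.5th percentile of gene-end peaks of their lists, so KCNA3 ranked high in set A and less high in set B. Its peaks were 1726, 1695 and 1285 bp wide and lay across the annotated start whose upstream bases are printed above.

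KCNC4, a transient channel gene of the KCNC family on chromosome 1 (110210314 to 110284080), had RNF2 folds of 7.87 (set A) and 4.66 (set B), and a RING1 fold of 4.39 (set A). Its RNF2 peaks were 2090 and 1207 bp wide and its RING1 peak 2779 bp. Within RNF2 of set A only KCNA3 had a higher fold among the members. KCNC1, of fast-spiking interneurons, had RING1 at 3.64 over 2715 bp and RNF2 at 4.43 in set A, and no end peak in set B.

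KCNA1, mutated in episodic ataxia, had folds of 4.86 for RING1 of set A, 5.18 for RNF2 of set A and 4.84 for RNF2 of set B, at the 76.6th, 76.7th and 86.9th percentile of gene-end peaks. Its set B peak, 2300 bp wide, was the only member peak of that list with a −log10 q of at least 5 (5.36). KCNA6 on the same chromosome 12 had 4.07, 3.94 and 3.59 in the same order, and KCNA5, an atrial channel gene near them, had a RING1 peak of set A only (3.31). KCNA7 had RNF2 in both sets, at 4.01 and 3.45, and no RING1 at its ends. KCNB2 had 4.29, 3.42 and 3.28, the set B value at the 6.82nd percentile. KCND2, which carries the transient dendritic current of cortical neurons, had 4.29, 4.08 and 4.05, at the 58.2nd, 43.5th and 64.8th percentile, nearer the middle of each list.

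KCNH genes split by RING1. KCNH2 had a RING1 fold of 5.86 and an RNF2 fold of 5.73 in set A, at widths of 2677 and 2534 bp, and an RNF2 fold of 3.29 over 502 bp in set B. That set B fold stood at the 7.53rd percentile of gene-end peaks. KCNH3, a forebrain-enriched member, had 3.93, 4.72 and 4.32. KCNH1 and KCNH5, the ether-à-go-go channel genes, had RNF2 in both sets and no RING1 peak: KCNH1 at 4.71 and 4.22, and KCNH5 at 3.24 and 4.75. KCNH5 was at the low end of set A (4.7th percentile) and high in set B (85.5th percentile). KCNH4 in set B was counted through its far end, where the peak also met RAB5C, and in set A its strongest RNF2 peak lay at the start.

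KCNQ genes, which encode the subunits of the neuronal M-current and a cardiac channel, differed among themselves. KCNQ3, an M-current subunit gene, had RING1 of set A (4.03) and RNF2 of set B (3.34), and no RNF2 peak at its ends in set A. KCNQ5 had RING1 at 4.50 and RNF2 at 5.33 over 4726 bp in set A, and no call in set B. Over all classes 4 members had RNF2 of each set but RING1 of neither (4.21%, against 1.66% of all genes), KCNA7, KCNH1 and KCNH5 among them.

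**Figure D2:**
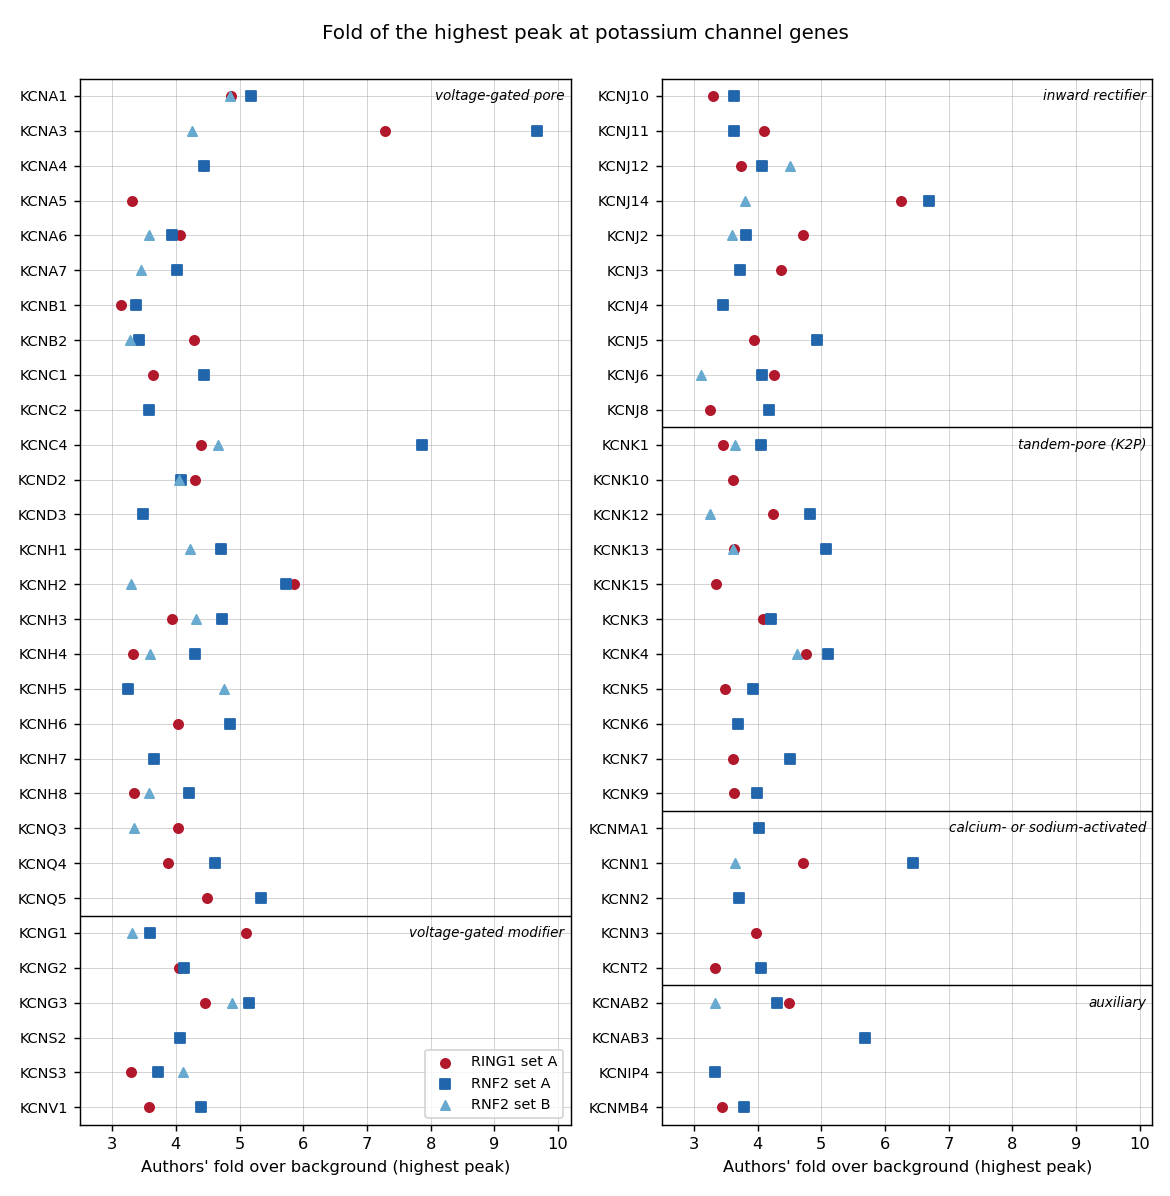
Authors' fold over background of the highest peak (horizontal axis) at potassium channel genes with a peak within 2 kb of a gene end (vertical axis), grouped by class. Symbols give the list, and RING1 of set B has no point because no member had its peak. Most points lie between 3 and 5, and KCNA3 reaches 9.68.

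Modifier subunits have no channel of their own and alter KCNB-type channels. KCNG genes had RING1 at 3, RNF2 of set A at 3 and RNF2 of set B at 2 of 4, KCNS genes 1, 2 and 1 of 3, KCNV genes 1, 1 and 0 of 2, and KCNF1 had none. KCNG3, on chromosome 2, was among the widest members in every list with calls: its peaks were 3718 bp for RING1 of set A, 5226 bp for RNF2 of set A and 3782 bp for RNF2 of set B, with folds of 4.45, 5.15 and 4.88. Its fold in set B was the highest of any member there. The same peaks met an end of MTA3, a chromatin remodelling gene, so they cannot be assigned to either gene. KCNS3 had RNF2 at 3.72 and 4.11 and a RING1 peak (3.29) beside them. KCNV1 had RING1 at 3.58 and RNF2 at 4.39 in set A only.

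Of the inward rectifier genes, 4 had RNF2 in both sets: KCNJ2, KCNJ6, KCNJ12 and KCNJ14. KCNJ2, of the classical inward rectifier of muscle and neurons, had folds of 4.71 (RING1, set A), 3.82 and 3.60 (RNF2, sets A and B). KCNJ6, a subunit of channels opened by G proteins, had 4.26, 4.07 and 3.11. Its set B fold stood at the 1.15th percentile of gene-end peaks, with a −log10 q of 1.13. KCNJ12 had 3.73, 4.07 and 4.51. KCNJ18, a near-identical copy of KCNJ12 on the same chromosome, had no peak, and reads from such copies cannot be assigned with certainty. KCNJ14 had the highest folds of the class in set A (6.26 for RING1 and 6.69 for RNF2) with 3.81 for RNF2 of set B, but its peaks lay at the far end of the gene and also met an end of CYTH2. KCNJ10, the glial channel gene that buffers potassium, had 3.29 and 3.63 in set A, and no call in set B. KCNJ8 and KCNJ11, pore genes of the channels closed by ATP, had RNF2 at 4.18 and 3.63 in set A, and neither was called in set B.

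K2P genes were the only class in which RING1 of set A met more members than RNF2 of set A, 10 against 9 of 15. At their ends, KCNK10 and KCNK15 had RING1 alone (3.62 and 3.35), and KCNK6 had RNF2 alone (3.70). The KCNK15 peak also met an end of RIMS4, and the KCNK6 peak an end of YIF1B. KCNK10 had an RNF2 peak of set A inside the gene, 2698 bp from its end. KCNK1, a founding K2P gene on chromosome 1, had 3.45 (RING1, set A), 4.05 and 3.64 (RNF2, sets A and B). KCNK12 and KCNK13, a closely related pair, had RNF2 at 4.83 and 5.07 in set A, then 3.26 and 3.61 for set B, and RING1 at 4.24 and 3.62. The KCNK12 fold in set B stood at the 5.04th percentile of gene-end peaks. All KCNK13 peaks also met an end of LOC124903406. KCNK4, which encodes a mechanosensitive channel, had 4.75, 5.10 and 4.61, from peaks at its far end shared with CATSPERZ. KCNK3 and KCNK9, acid-sensitive channel genes, had RNF2 at 4.20 and 3.99 in set A, and no set B call.

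Calcium- or sodium-activated channels follow a rise of these ions inside the cell. KCNN1, a small-conductance channel gene, had the widest gene-end peak of any member in every list with calls: 6336 bp for RNF2 of set A, 4188 bp for RING1 of set A and 4210 bp for RNF2 of set B, with folds of 6.44, 4.72 and 3.64. KCNMA1, of the large-conductance channel, had RNF2 of set A alone (4.02), and KCNN3 had RING1 of set A alone (3.98). KCNT2, a sodium-activated channel gene, had 3.33 and 4.05 in set A. KCNN4, KCNT1 and KCNU1, a sperm channel gene, had no peak at their ends.

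Auxiliary genes were mostly without a call at their ends. None of 5 KCNE genes, whose products modify KCNQ1 and other channels, had a peak at an end. KCNIP genes, of calcium-binding partners of KCND channels, had RNF2 of set A at 1 of 4 (KCNIP4, 3.32) and nothing else at their ends. KCNMB genes, partners of KCNMA1, had RING1 and RNF2 of set A at 1 of 4 (KCNMB4, 3.44 and 3.78). KCNAB2, a cytoplasmic partner of KCNA channels, was the only auxiliary gene in 3 lists, at 4.49, 4.31 and 3.33, and its peaks also met an end of NPHP4. KCNAB3 had RNF2 of set A at 5.69 from a peak that also met CNTROB and TRAPPC1.

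No potassium channel gene had a very wide peak at its ends, and whether the members' median width and fold lay above or below those of all genes turned with the peaks counted. Taking the highest-fold peak per gene, the median width at members was 1017 bp for RING1 of set A, 1389 bp for RNF2 of set A and 1004 bp for RNF2 of set B, against 802, 1156 and 897 bp over all genes with a peak. No member's highest-fold peak reached 10 kb in any list, whereas 2.70%, 3.09% and 5.04% of all genes with a peak had such a peak. At least 5 kb was reached at 4 members, all for RNF2 in set A (7.02% of those called, against 6.08% of all genes). KCNN1, KCNG3 and KCNK4 were among them. Median fold at members was 4.0, 4.08 and 3.62, against 4.19, 4.33 and 3.85 over all genes. With each list held to its 659 peaks of best q, RNF2 peaks at the 3 members left in each set had median widths of 1695 and 2300 bp, below the 3782 and 3659 bp of all genes. For RNF2 of set B the width was also lower over gene bodies (836 against 843 bp) and with an overlap of 500 bp (1114 against 1160 bp), and the RNF2 fold of set A was higher with a −log10 q of at least 5 (6.44 against 6.04). Members above the 90th percentile of fold within their list were KCNA3, KCNH2 and KCNJ14 for RING1 of set A, KCNA3, KCNC4, KCNJ14 and KCNN1 for RNF2 of set A, and none for RNF2 of set B.

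**Figure D3:**
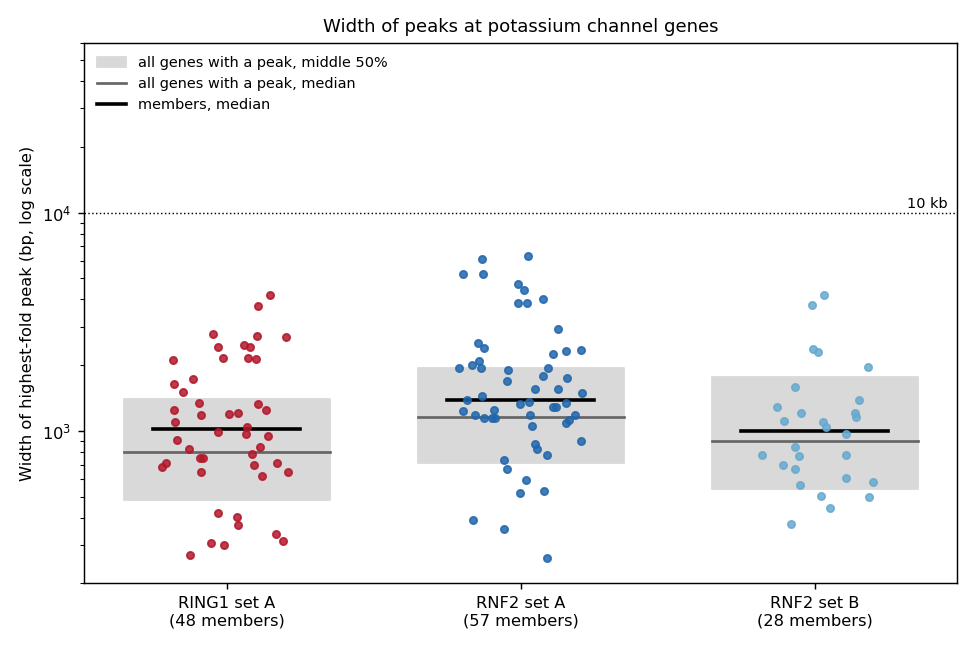
Width in bp (log scale) of the highest-fold peak at each potassium channel gene with a peak (points, random horizontal spread), by list, with the members' median (black line). Grey boxes and lines give the middle 50% and median over all genes with a peak. All points lie below the dotted line at 10 kb, and the widest is 6336 bp.

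Few member peaks were among the most significant ones. With a −log10 q of at least 5, RING1 of set A was at 3 members (3.16%, against 7.96% of all genes), RNF2 of set A at 7 (7.37%, against 15.7%) and RNF2 of set B at 1 (1.05%, against 2.56%). RING1 of set B was at 0, where 0.025% of all genes had such a peak. For RING1 of set A these were KCNJ14, KCNA3 and KCNH2. For RNF2 of set A they included KCNA3 (−log10 q of 14.1), KCNJ14, KCNC4, KCNN1, KCNAB3 and KCNH2, and for set B the member was KCNA1. KCNJ14 and KCNAB3 owed their calls to peaks that also met other genes. The members' share was thus above that of all genes in the 3 full lists with calls and below it at the stricter limit, and this contrast was not tested.

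Where the strand was known, member peaks lay at the start of the gene far more often than at its end. RefSeq promoters, which give the strand, matched 71 of the 95 members. Among the 66 of these longer than 4 kb, RNF2 of set A was at the start of 38 (57.6%) and at the end of 4 (6.06%), including 3 with both. Over all such genes the shares were 58.5% and 7.88%. RNF2 of set B was at the start of 17 (25.8%, against 20.4%) and the end of 3 (4.55%, against 3.56%). RING1 of set A was at the start of 28 (42.4%, against 46.3%) and the end of 3 (4.55%, against 6.58%). Counting the start alone over all 71, RING1 of set A was at 29 (44.7% of all genes with a strand), RNF2 of set A at 38 (55.9%), RNF2 of set B at 17 (20.3%) and RING1 of set B at 0 (1.07%). These are 40.8%, 53.5%, 23.9% and 0% of the members, below the share of all genes in both lists of set A and above it for RNF2 of set B. With any annotated start of a gene counted, the shares of members were 47.9% for RING1 of set A (all genes 47.1%), 59.2% for RNF2 of set A (58.4%) and 26.8% for RNF2 of set B (21.5%), so the direction in set A turned with the choice of start. Members called only through peaks that also met another gene's end were 8 of 48 for RING1 of set A (16.7%, against 33.9% of all genes), 8 of 57 for RNF2 of set A (14%, against 33.2%) and 6 of 28 for RNF2 of set B (21.4%, against 36.4%).

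Several members had peaks inside the gene and none at its ends. These members were named after their values were seen. RING1 of set A had 10 such members (10.5%, against 4.82% of all genes), RNF2 of set A 10 (10.5%, against 4.61%), RNF2 of set B 8 (8.42%, against 3.56%) and RING1 of set B 1 (1.05%, against 0.265%). Members are longer than genes at large, with a median of 40505 bp against 24130 bp, and a longer gene can hold more peaks; the part of length in these counts was not tested. KCNIP3, KCNIP2, KCNAB1 and KCNA2, all without an end peak, had peaks at or near an annotated inner start. KCNIP3 had RING1 at 4.42 and RNF2 at 4.51 in set A and RNF2 at 4.02 in set B. KCNIP2 had RNF2 at 4.85 over 2147 bp in set A across an inner start, and KCNA2, a channel gene of axons, had RNF2 at 4.41 over 1760 bp. Thus 2 of the 3 KCNIP genes with no end peak had RNF2 of set A at an inner start.

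KCNN2, a small-conductance calcium-activated channel gene of neurons, was the single member with a peak of all 4 lists, at an annotated start inside the gene on chromosome 5 (start at 114362070). RING1 of set A covered 3199 bp with a fold of 4.68 (114360848 to 114364046). RING1 of set B covered 354 bp with a fold of 4.32 (114361470 to 114361823), ending 247 bp before the start. This peak had a −log10 q of 1.89, in a list whose lowest was 1.08, and the place in all 4 lists depends on it. At its gene ends KCNN2 had RNF2 of set A alone, with a fold of 3.71 over 1441 bp. At the inner start, RNF2 covered 6324 bp in set A (fold 5.90) and 6854 bp in set B (fold 4.41), both across the start. The set B peak was wider than any end peak of a member in that list. Counted over gene bodies with 2 kb on each side, RING1 of set B was at this 1 member (1.05%, against 1.58% of all genes). On that count RING1 of set A was at 58 members (61.1%, against 50.5%), RNF2 of set A at 67 (70.5%, against 60.7%) and RNF2 of set B at 36 (37.9%, against 25.2%).

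**Figure D4:**
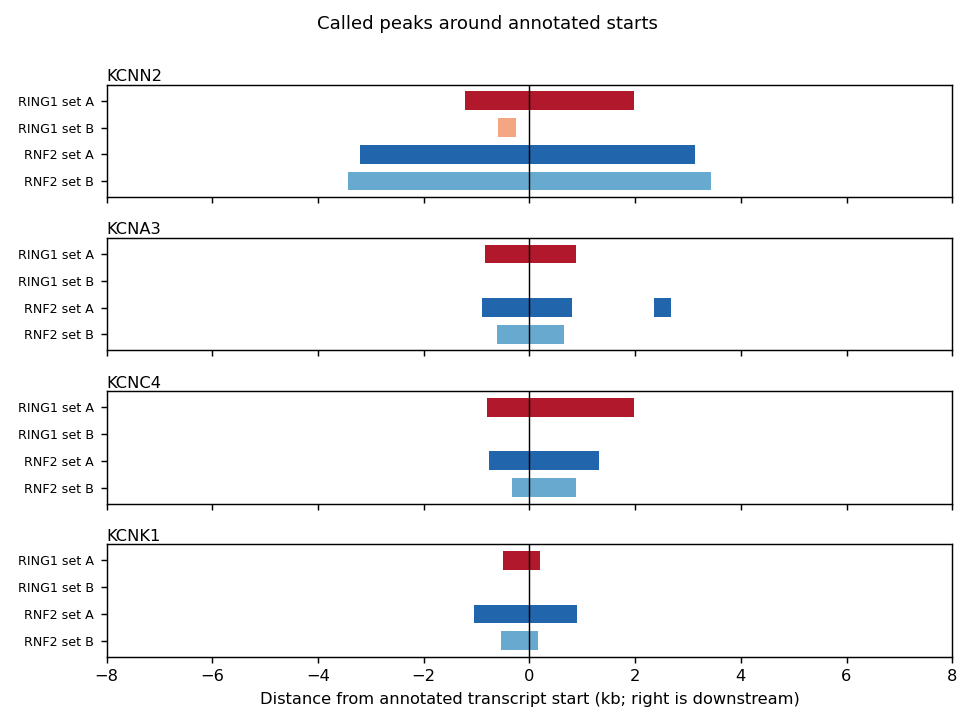
Called peaks (bars) of the 4 lists around the annotated transcript starts of KCNN2 (inner start), KCNA3, KCNC4 and KCNK1, with distance in kb from the start on the horizontal axis and transcription to the right. Only KCNN2 has a RING1 set B bar, 354 bp wide, and its RNF2 bars are the longest.

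KCNQ1, a cardiac and inner ear channel gene, had no end peak and peaks of 3 lists at an annotated end of KCNQ1OT1, an imprinted non-coding RNA transcribed from within it. RING1 of set A covered 2218 bp (fold 4.20), RNF2 of set A 3226 bp (4.93) and RNF2 of set B 832 bp (3.98), and all 3 held the position 2699994 on chromosome 11, that annotated end. Elsewhere inside KCNQ1, set A had overlapping peaks of RING1 (4.36 over 244 bp) and RNF2 (4.34 over 1113 bp). KCNK2, a stretch-sensitive channel gene, had no end peak and a set A RNF2 peak of 2660 bp (3.43) across an inner annotated start.

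Members with calls at their ends in more lists had more CpG-rich promoters. The CpG observed/expected ratio was taken over 300 bases, 250 before and 50 after the annotated start nearest the gene's 5′ end, for the 71 members with a promoter entry. Its median was 0.314 for the 28 members in no list, 0.551 for 10 in 1 list, 0.766 for 16 in 2 lists and 0.855 for 17 in 3 lists. Over all genes these medians were 0.363, 0.812, 0.854 and 0.851. For the 71 members the median was 0.630, below the 0.761 of all 15842 genes with a promoter entry. Of these members, 53.5% had a ratio of at least 0.6, against 65.6% of those genes. A ratio of at least 0.6 was held by 6 of the 28 members in no list (21.4%, against 35.3% of all genes in no list) and by 15 of the 17 in 3 lists (88.2%, against 86.3%). The 2 exceptions in 3 lists were KCNJ14 (0.275) and KCNK4 (0.276), both named above for peaks at the far end, and no peak lay on either promoter window, although a weaker RNF2 peak of set A (3.44) lay at the KCNK4 start.

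The 6 members with a ratio of at least 0.6 and no end peak were KCNT1 (1.01), KCNIP3 (0.965), KCNF1 (0.780), KCNMB3 (0.714), KCNE3 (0.630) and KCNE5 (0.622). At KCNIP3 an RNF2 peak of set A lay on this window, and the other 5 had no peak on the promoter window. At the other end lay KCNE2 (0.0501) and KCNJ13 (0.0734), whose upstream bases are printed above. Among the members with calls, KCND3 had the highest ratio (1.16) and RNF2 of set A alone.

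**Figure D5:**
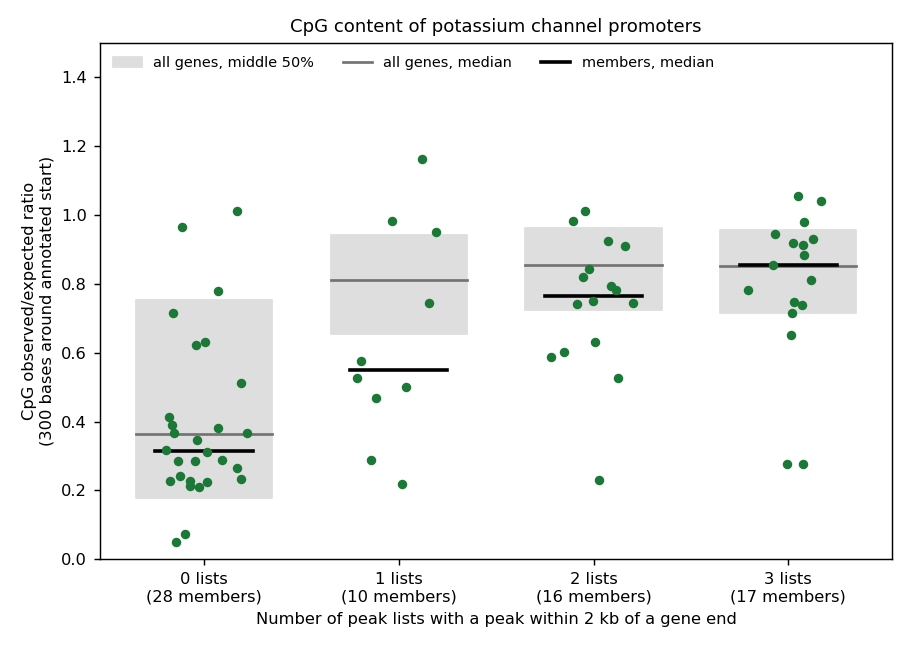
CpG observed/expected ratio of the 300-base promoter window (vertical axis) for the 71 potassium channel genes with a RefSeq promoter (points), by number of peak lists with a peak within 2 kb of a gene end (horizontal axis). Black lines are the members' medians, and grey boxes and lines the middle 50% and median of all genes. The members' median goes from 0.314 in no list to 0.855 in 3 lists.

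Genes that work with these channels but lie outside the symbol rule were also counted. Of 12 partner subunits and modulators, 4 had RING1 of set A, 5 RNF2 of set A and 2 RNF2 of set B. ABCC9, the sulphonylurea receptor gene that pairs with KCNJ8, had 4.40, 3.95 and 4.16 in that order. Of 6 related cation channel genes, 5, 5 and 2 were called. Of 14 potassium pump and cotransporter genes, 7, 8 and 2 were called. Over all protein-coding genes the shares were 45.6%, 56.1% and 21.7% in the same order of lists. SLC12A5, which encodes the neuronal chloride-extruding potassium cotransporter, had 6.84, 6.40 and 3.38, and ATP1B1, a sodium pump subunit gene, had 5.53, 5.88 and 4.05. None of these 32 genes had RING1 in set B.

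The authors' consolidated region file, which holds positions only, met 28 members (29.5%, against 21% of all genes). Of these, 26 were among the 27 with RNF2 in both sets. KCNAB3 was also met.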

How the data were processed

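The 4 wild-type CUT&RUN peak lists of RING1 and RNF2 were used. Build hg38, MACS2 2.2.9.1, BWA 0.7.17, Picard 2.8.1, deepTools 3.5.2, SAMtools 1.9 and bedtools 2.30.0 appear in the submitters' processing notes, which assign them no role and name no control for peak calling. How the authors made the consolidated regions is also not stated there. Peaks carry names in the style of MACS2 and were taken as called per library. The deposited fold per peak is a ratio over background, and the deposited significance is −log10 of the q-value, with lowest values just above 1 (q = 0.1). Other score columns were not used. Read depth is unknown, so no counting interval was computed.

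Genes and positions were those of RefSeq GRCh38.p14, and other sequences than chromosomes 1 to 22, X and Y were left out. A gene was called where a peak shared at least 1 bp with 2 kb around either gene end. Where several peaks met a gene, the highest fold was used. Shares are given beside those of all 20033 protein-coding genes, with no test. Members and lists were chosen with earlier results of these data known. Named by rule were the 12 members with the largest smaller RNF2 fold of both sets, those with RNF2 of each set but RING1 of neither, the 5 widest peaks per list and the leading member of each subfamily; others were chosen after their values were seen. Promoter windows matched 71 members; overlapping windows of opposite strands were checked to be reverse complements. Protein sequences were not used here, and a few single genes are not reported here. Counting was tested on simulated data. Alternatives were other windows, gene bodies, starts only, a stricter q, lists of equal length, a larger overlap, autosomes, unshared peaks and each set left out; any annotated start, and RING1 of set B left out, were added after seeing the data. The scripts ran on pandas 2.3.3 and numpy 2.4.6 under Python 3.11.15, with matplotlib 3.10.9 for plots.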

Additional observations from a re-analysis of the deposited data

How the results depend on the processing

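Of 137 values recomputed under alternatives, 105 stayed within 1.5 times the count reported or, for medians, within the spread between the 2 RNF2 sets (SD 0.324 for fold and 273 bp for width), and 32 moved. None moved with windows of 1 kb or 5 kb, 500 bp of overlap, chromosomes 1 to 22 or unshared peaks. With a −log10 q of at least 5, the counts were 3 for RING1 of set A, 7 and 1 for RNF2 of sets A and B and 0 for RNF2 in both sets (all genes 2.41%, so the direction turned); the median widths were 1726, 2090 and 2300 bp (all genes 1354, 1674 and 6417) and the median folds 6.26, 6.44 and 4.84 (6.22, 6.04 and 5.89). With all lists cut to the 659 peaks of best q, RING1 of set A was at 2 members (2.11%, against 3.70% of all genes), RNF2 at 3 and 3 (3.16% each, against 3.91% and 3.55%) and RNF2 in both sets at 0 (all genes 2.2%); the median folds were 6.77, 7.87 and 4.84 (all genes 7.40, 8.83 and 5.49), and the median widths of RNF2 1695 and 2300 bp (3782 and 3659). Both alternatives keep fewer peaks by construction. With the annotated start only, 71 members could be counted, RING1 of set A was at 29 (40.8%, against 44.7%), RNF2 of set B at 17 (23.9%, against 20.3%) and RNF2 in both sets at 17. Over gene bodies, or with any annotated start, RING1 of set B, RING1 in both sets and all 4 lists were each at 1 member, KCNN2. Leaving out 1 set gave 0 to 48 members for RING1, 28 to 57 for RNF2 and 0 to 43 for both proteins, and without RING1 of set B alone 23 members were in the other 3 lists. Taking the widest peak in place of the highest-fold peak changed 1 of 70 folds of named members. No paired analysis was possible because the counts come from no test to which a block could be added; values set side by side within a set are descriptions.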

Other observations

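Across the 27 members with RNF2 in both sets, the order of folds had a Spearman's rho of 0.319 and a Pearson's r of 0.278 between the sets. Across the 43 members with both proteins in set A, the folds of RING1 and RNF2 had a rho of 0.457 and an r of 0.689, and the RNF2 peak was the wider at 31. Over all genes with a peak, set A widths also had a larger median for RNF2 (1156 bp) than for RING1 (802 bp). The points of each pair of lists share a gene and, for the second pair, a set, and genes are not independent replicates.

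The RE1 half-site TTCAGCACC, part of the element bound by the neuronal gene repressor REST, was searched on both strands of the 300-base promoter windows. It was present in 2 of 109 windows of members, those of KCNH6 and KCNK3, and in 78 of 22198 windows of all protein-coding genes (0.351%). KCNH6 and KCNK3 both had RING1 and RNF2 of set A at a gene end, and neither had a set B peak there. At KCNK3 both peaks lay on the promoter window. At KCNH6 the RING1 peak and the stronger RNF2 peak (4.85) lay at the far end and also met DCAF7. Only a weaker RNF2 peak (3.24) lay on the KCNH6 window. A match is a run of letters and not a bound site.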
